A study of Mus musculus with 20 samples.

Results

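The respiratory complex assembly factors are 46 nuclear genes whose products help to build complexes I to V of the mitochondrial respiratory chain without being part of the finished enzymes. They were taken from a fixed list of symbols and split by the complex they serve, with 15 for complex I, 4 for complex II, 6 for complex III, 19 for complex IV and 2 for complex V (ATP synthase). All 46 symbols matched 1 gene ID each among the 55573 IDs of the count files. Of these, 45 had enough reads to be tested among 13783 tested genes. The exception was *Pet117*, a complex IV factor listed at 0 reads in every mouse, whose 693 exon bases are all shared with exons of *Kat14* on the same strand, where the counting assigns a read to neither gene.

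The complexes of the respiratory chain pass electrons from NADH and succinate to oxygen, complexes I, III and IV pump protons on the way, and ATP synthase uses the proton gradient to make ATP. Each complex is put together in steps from subunits made in the cytosol and, except in complex II, subunits encoded by mitochondrial DNA, and complexes I to IV also need heme, copper, flavin or iron-sulfur cofactors. Assembly factors hold the intermediates, insert these cofactors or modify subunits, and the liver depends on this machinery for fatty acid oxidation and urea and glucose production.

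The question was how these factors differ between the livers of Titan mice, also called DU6, and of control mice at 2 ages. Titan is a non-inbred line selected for 45 years for high body weight, and the control is the unselected FZTDU line from the same base population. Liver RNA came from 5 male mice per group, of 11 weeks or of 19–21 weeks, and all 4 groups ate the same standard breeding diet freely. Each line is a single breeding population, so the selection and any other difference between the lines cannot be told apart, and the label gives the older mice a range of ages rather than 1 age. In whole liver, fewer cells of a type and less RNA per cell cannot be told apart either.

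Reads on genes ranged from 6794935 to 23295028 per mouse, and the older Titan mice had the lowest median (9524930, against 11218712 to 14283662 in the other groups). Values below are CPM (read counts relative to the reads on the tested genes), scaled between libraries by TMM. Fold changes are log2 values of Titan over control with their standard error (SE) from edgeR's quasi-likelihood test. The p values were adjusted by Benjamini-Hochberg over all tested genes, with a threshold of 0.05. Hepatocyte markers were abundant in every mouse, with summed levels of *Alb*, *Apoa1*, *Ttr*, *Cps1* and *Hnf4a* between 63323 and 97839 CPM. Reads outside genes made up 18.39% to 41.96% of a library, and 5 mice lay above 33% (2 control and 3 Titan mice).

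Promoter windows show the letters around the starts of the genes with the clearest differences. They are given for the 3 factors lower in Titan at both ages and for *Dmac2*, the 1 factor higher at 19–21 weeks. The sequences are RefSeq windows of build GRCm38.p6, from 250 bases before to 50 bases after the first listed start, 5′ to 3′ on the strand of the gene. Capitals mark the letters CCGGAAG, the core that ETS-family factors such as GABPA bind, and AAGATGGC, a YY1 site. The windows are chr2:119662785-119663084 on the minus strand for *Ndufaf1*, chr6:6955768-6956067 on the plus strand for *Sdhaf3*, chr2:155930261-155930560 on the minus strand for *Uqcc1* and chr7:25619164-25619463 on the plus strand for *Dmac2*.
Ndufaf1: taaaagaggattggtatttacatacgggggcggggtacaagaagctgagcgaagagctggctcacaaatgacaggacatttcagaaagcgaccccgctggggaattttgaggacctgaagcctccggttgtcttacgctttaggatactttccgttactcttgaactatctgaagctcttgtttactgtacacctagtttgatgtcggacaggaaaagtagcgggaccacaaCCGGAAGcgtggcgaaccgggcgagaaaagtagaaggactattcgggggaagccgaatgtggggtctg
Sdhaf3: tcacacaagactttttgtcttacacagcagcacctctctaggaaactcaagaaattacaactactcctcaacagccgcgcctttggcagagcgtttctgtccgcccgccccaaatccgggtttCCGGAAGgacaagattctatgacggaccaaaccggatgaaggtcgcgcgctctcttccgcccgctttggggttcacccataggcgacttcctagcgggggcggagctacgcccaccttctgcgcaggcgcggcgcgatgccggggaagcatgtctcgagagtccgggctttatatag
Uqcc1: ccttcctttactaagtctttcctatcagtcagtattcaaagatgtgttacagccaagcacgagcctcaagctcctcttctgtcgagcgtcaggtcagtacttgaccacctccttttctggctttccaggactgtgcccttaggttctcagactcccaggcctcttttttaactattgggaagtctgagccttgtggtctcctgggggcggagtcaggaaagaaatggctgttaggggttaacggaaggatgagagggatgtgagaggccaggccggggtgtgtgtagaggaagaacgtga
Dmac2: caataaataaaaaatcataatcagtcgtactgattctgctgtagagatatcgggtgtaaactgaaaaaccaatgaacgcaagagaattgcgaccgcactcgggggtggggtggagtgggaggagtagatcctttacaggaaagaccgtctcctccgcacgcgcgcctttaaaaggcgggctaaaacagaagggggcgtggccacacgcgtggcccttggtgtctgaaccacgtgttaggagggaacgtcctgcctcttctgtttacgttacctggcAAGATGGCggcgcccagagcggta

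A window was listed for 41 of the 46 factors and for 17492 protein-coding genes, and each motif was searched on both strands in every window of a gene. The ETS core CCGGAAG was in 16 of the 41 factors (39%), against 12.9% of all protein-coding genes. Its longer form CCGGAAGT, which contains the core, was in 6 factors (14.6%, against 5.69%). *Timmdc1*, *Cox15*, *Bcs1l*, *Cox10*, *Cox14* and *Cox16* held the longer form. The YY1 site AAGATGGC was in 7 factors (17.1%, against 3.57%) and the NRF1 core CGCATGCG, which reads the same on both strands, in 3 (7.32%, against 2.77%). Of the 62 nuclear-encoded subunits with a window, 16 held CCGGAAG (25.8%), 5 held CCGGAAGT (8.06%), 9 the YY1 site and 9 the NRF1 core. Of the 8 factors with a window that were lower in Titan at either age, 4 held CCGGAAG and 0 held the YY1 site or the NRF1 core, and of the 29 that passed the test at neither age, 12, 6 and 2 did. The core CCGGAAG was added after the windows had been read. A match describes the letters in the window only, and binding was not measured.

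At 11 weeks, 5 of the 45 factors were lower in Titan livers and 3 were higher. Background rates over all tested genes were 7.69% lower and 7.23% higher, and the factors stood at 11.1% and 6.67%. *Cox18*, *Sdhaf3*, *Ndufaf1*, *Uqcc1* and *Timmdc1* were lower, and *Ndufaf5*, *Cox19* and *Coa5* were higher. The Titan and control mice did not overlap for 5 factors in the lower direction (11.1%, against 6.08% of all tested genes) and for 1 in the higher direction (2.22%, against 5.84%). Without Titan mouse 1 of this age 0 factors were higher, with *Ndufaf5* at 0.57 (adjusted p = 0.0509), *Cox19* at 0.47 (adjusted p = 0.0588) and *Coa5* at 0.17 (adjusted p = 0.114), while the same 5 factors were lower.

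At 19–21 weeks, 8 factors were lower in Titan (17.8%, against 4.88% of all tested genes) and 1 was higher (2.22%, against 4.24%). *Ndufaf1*, *Sdhaf3*, *Cox11*, *Uqcc1*, *Ndufaf7*, *Acad9*, *Sco2* and *Cox15* were lower, and *Dmac2* was higher. The groups did not overlap for 6 factors in the lower direction (13.3%, against 4.0%) and for 2 in the higher direction (4.44%, against 3.62%). The study itself picked out a gene category for the assembly of these complexes on the same libraries, so the direction of these counts is not independent evidence. In a fit without the 5 mice above 33% of reads outside genes, chosen after seeing the data, 0 factors were lower at 19–21 weeks and 0 were higher at 11 weeks, while the same 5 (*Cox18*, *Ndufaf1*, *Sdhaf3*, *Timmdc1* and *Uqcc1*) were lower at 11 weeks and 2 (*Dmac2* and *Uqcc3*) were higher at 19–21 weeks. In that fit the calls over all genes at 19–21 weeks also went from 673 to 254 lower and from 584 to 244 higher, with 4 control and 3 Titan mice left at that age. The part of these libraries in the counts was not tested further.

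The estimates leaned below 0 across the list. The median log2 fold change over the 45 factors was -0.08 at 11 weeks and -0.17 at 19–21 weeks, against -0.02 and 0.01 over all tested genes. At each age 33 of 45 factors (73.3%) had an estimate below 0, against 52.6% and 48.4% of all tested genes. Most single factors did not pass the test. Of the 45, 14 passed at either age (31.1%, against 18.7% of all tested genes), and 3 were lower at both ages (*Ndufaf1*, *Sdhaf3* and *Uqcc1*, 6.67%, against 2.89%). Higher at both ages were 0 with edgeR, against 2.40% of all tested genes, with 3 at an unadjusted p under 0.05 (*Ndufaf5*, *Cox19* and *Sdhaf1*) and 1 by DESeq2 (*Cox19*). The comparisons at the 2 ages use different mice.

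**Figure D1:**
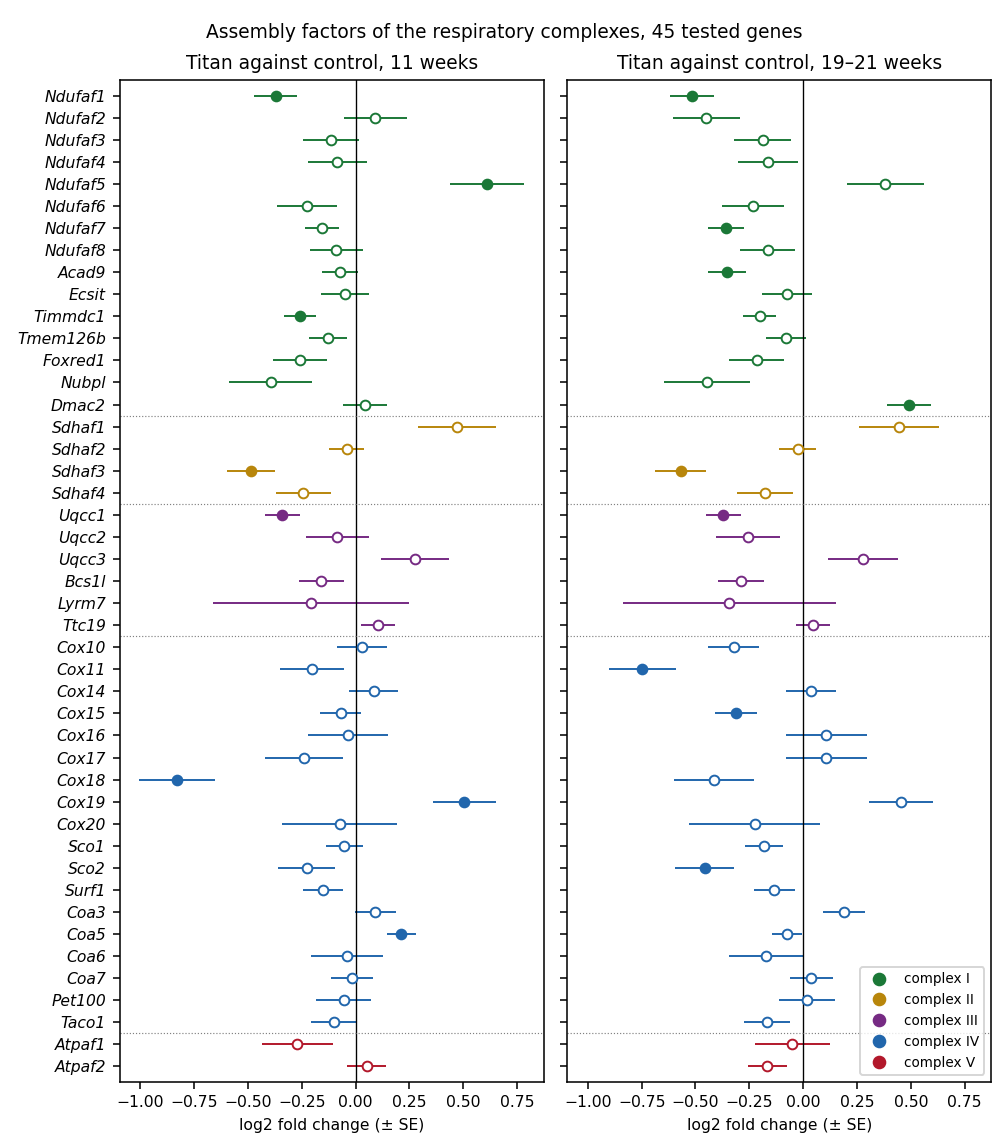
Log2 fold change of Titan over control (x axis, points with SE bars) for the 45 tested assembly factors (y axis) at 11 weeks (left) and 19–21 weeks (right), 5 mice per group. Filled points passed the threshold of 0.05 for the adjusted p, colours give the complex, and 33 of 45 points lie left of 0 at each age.

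Several complex I factors act on the membrane arm, where NDUFAF1, ECSIT, ACAD9, TIMMDC1 and TMEM126B form an intermediate assembly complex. Among the 15 complex I factors, 2 were lower and 1 higher in Titan at 11 weeks, and 3 were lower and 1 higher at 19–21 weeks. These were 13.3% and 6.67% at 11 weeks, against 7.69% and 7.23% of all tested genes. For the older mice the shares of all tested genes were 4.88% lower and 4.24% higher. The median log2 fold change of the 15 factors was -0.11 and then -0.20, and 12 and then 13 of the 15 estimates were below 0.

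*Ndufaf1* (GRCm38 chr2:119655446-119662827), a chaperone of that intermediate, was lower at both ages. At 11 weeks the Titan mice had 19.1, 18.8, 17, 17 and 18.8 CPM and the control mice 22.9, 20.6, 24.8, 22.4 and 26.6 CPM. Every Titan mouse lay below every control mouse, with a log2 fold change of -0.37 (SE 0.10, adjusted p = 0.0137 by edgeR). In the older mice the Titan values were 17.9, 17.4, 16.04, 12.5 and 14.4 CPM against 24.6, 19.2, 23.7, 23.9 and 20.05 CPM. The groups were again apart, with a log2 fold change of -0.51 (SE 0.10, adjusted p = 0.00292). Group means went from 23.4 ± 2.30 and 18.1 ± 1.04 CPM at 11 weeks to 22.3 ± 2.47 and 15.7 ± 2.23 CPM at 19–21 weeks in control and Titan mice (SD, n = 5). Without the 5 mice the older difference was -0.40 (adjusted p = 0.0803).

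*Acad9* (chr3:36065979-36092853), an acyl-CoA dehydrogenase family member that works as an assembly factor, was lower at 19–21 weeks. The older Titan mice had 29.2, 31.6, 26.5, 23.7 and 28.5 CPM and the older controls 33.2, 33.6, 37.0, 40.2 and 34.3 CPM, without overlap. The log2 fold change was -0.35 (SE 0.09, adjusted p = 0.0129), and without the 5 mice it was -0.21 (adjusted p = 0.266). The younger mice overlapped, between 29.2 and 36.4 CPM in Titan and 31.2 and 37.7 CPM in control mice, and the estimate was -0.07 (adjusted p = 0.639). *Timmdc1*, the membrane protein of the same intermediate, was lower at 11 weeks with 29.6 to 36.2 CPM in Titan against 35.7 to 42.8 CPM in control mice, a slight overlap, and a log2 fold change of -0.26 (SE 0.08, adjusted p = 0.0237). That call was lost in 4 of the 20 fits that left out 1 mouse and in 3 of 10 other settings (adjusted p up to 0.114). *Ecsit* and *Tmem126b*, the remaining partners, did not pass at either age, with estimates of -0.05 and -0.13 at 11 weeks and -0.08 for each at 19–21 weeks.

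A second set of complex I factors modifies or loads the peripheral arm, which holds the flavin and the iron-sulfur clusters. *Ndufaf7* (chr17:78937136-78948052), a mitochondrial protein methyltransferase, was lower at 19–21 weeks, with 11.1, 11.1, 10.5, 9.87 and 10.7 CPM in Titan against 12.5, 13.9, 14.7, 12.6 and 14.4 CPM in control mice. The groups were apart and narrow, and the log2 fold change was -0.36 (SE 0.08, adjusted p = 0.00900), with -0.34 and an adjusted p of 0.110 without the 5 mice. *Ndufaf5*, which hydroxylates an arginine of NDUFS7, was higher at 11 weeks, with 5.91 to 7.58 CPM in Titan against 2.70 to 5.04 CPM in control mice and a log2 fold change of 0.61 (SE 0.17, adjusted p = 0.0201). The control range of *Ndufaf5* rested on 1 mouse at 2.70 CPM, with the other 4 between 4.695 and 5.035 CPM, and the groups stayed apart above it. In the older mice its groups overlapped (4.08 to 7.99 against 3.69 to 5.67 CPM, log2 fold change 0.38, adjusted p = 0.196). Its partner *Ndufaf8* had estimates of -0.09 and -0.16 (adjusted p = 0.705 and 0.464).

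*Dmac2* (chr7:25619414-25625551), a factor of the distal membrane arm, was the 1 factor that was higher at 19–21 weeks. The older Titan mice had 19.2, 22.0, 14.8, 18.8 and 18.3 CPM and the older controls 13.3, 14.7, 11.7, 12.5 and 14.1 CPM. The lowest Titan value lay just above the highest control value, and the log2 fold change was 0.49 (SE 0.10, adjusted p = 0.00409). The adjusted p stayed at or below 0.0293 in every alternative fit, although the fold change is under a further limit of 0.5 on the log2 scale. The younger groups overlapped, with 10.3 to 13.9 CPM in Titan and 11.3 to 12.8 CPM in control mice, and the estimate was 0.04 (SE 0.10, adjusted p = 0.830).

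The complex I factors past the threshold at neither age were *Ndufaf2*, *Ndufaf3*, *Ndufaf4*, *Ndufaf6*, *Ndufaf8*, *Ecsit*, *Tmem126b*, *Foxred1* and *Nubpl*. NDUFAF3 and NDUFAF4 act early on the quinone-binding module, FOXRED1 acts late, and NUBPL delivers iron-sulfur clusters. Their estimates ran from -0.39 (*Nubpl*) to 0.09 (*Ndufaf2*) at 11 weeks. For the older mice all of them lay below 0, from -0.45 (*Ndufaf2*, adjusted p = 0.0768) to -0.08. *Nubpl* has a copy, *Gm7514*, with 94.7% identity over 955 coding bases, so reads that fit both are missing from its count.

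Complex II is the succinate dehydrogenase, made of 4 nuclear subunits, and its 4 factors serve the flavin of SDHA or the iron-sulfur clusters of SDHB. *Sdhaf3* (chr6:6956004-7042979), a factor of SDHB maturation, was the only one of the 4 to pass the test, and it was lower at both ages. At 11 weeks the Titan mice had 7.37, 7.35, 7.01, 6.45 and 7.10 CPM and the control mice 10.9, 8.58, 11.8, 9.02 and 9.11 CPM. The groups were apart and the Titan mice close together, with means of 7.06 ± 0.371 and 9.89 ± 1.40 CPM (SD, n = 5) and a log2 fold change of -0.49 (SE 0.11, adjusted p = 0.00500). The older Titan mice had 6.93, 6.64, 6.20, 5.73 and 6.12 CPM and the control mice 11.1, 9.84, 9.87, 8.30 and 7.63 CPM. They were again apart, with a log2 fold change of -0.57 (SE 0.12, adjusted p = 0.00386), and of -0.55 (adjusted p = 0.0551) without the 5 mice.

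The other complex II factors had mixed signs. *Sdhaf1*, the partner of SDHAF3 in iron-sulfur maturation, had estimates above 0 at both ages (0.47 and 0.45, adjusted p = 0.0886 and 0.141). *Sdhaf2*, which attaches the flavin to SDHA, stayed near 0 (-0.04 and -0.03). *Sdhaf4*, which binds flavinated SDHA, had 8.83 to 9.73 CPM in Titan and 10.6 to 11.8 CPM in control mice at 11 weeks. These ranges did not overlap, yet its log2 fold change of -0.24 (SE 0.13) did not pass (adjusted p = 0.226).

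Complex III factors act on cytochrome b or on the Rieske iron-sulfur protein. *Uqcc1* (chr2:155846894-155930310), which with UQCC2 binds newly made cytochrome b, was lower at both ages and was the only one of 6 that passed. This was 16.7% of the 6 factors at each age, against 7.69% of all tested genes lower at 11 weeks and 4.88% at 19–21 weeks. At 11 weeks the Titan mice had 27.4, 27.7, 25.1, 19.96 and 23.6 CPM and the control mice 31.5, 30.8, 30.7, 33.2 and 30.6 CPM. The controls lay within a narrow band above every Titan mouse, with a log2 fold change of -0.34 (SE 0.08, adjusted p = 0.00650). The older Titan mice had 22.2, 26.1, 22.1, 21.3 and 24.98 CPM and the control mice 28.0, 32.04, 31.1, 29.8 and 29.8 CPM. The groups were apart again, and the log2 fold change was -0.37 (SE 0.08, adjusted p = 0.00773), or -0.31 (adjusted p = 0.133) without the 5 mice.

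*Uqcc2* and *Uqcc3*, the partners of *Uqcc1*, had estimates of opposite sign, -0.08 and -0.26 for *Uqcc2* and 0.28 at each age for *Uqcc3*, and did not pass. *Bcs1l*, the ATPase that moves the Rieske protein across the inner membrane, had estimates of -0.16 and -0.29 (adjusted p = 0.346 and 0.0971). *Ttc19*, which clears fragments of that protein, had 0.11 and 0.05. *Lyrm7*, the chaperone of the Rieske protein, ranged from 0.671 to 7.59 CPM over the 20 mice and from 0.671 to 7.204 CPM among the older controls alone. With that spread its estimates had SE of 0.45 and 0.49, and a difference of the size seen for *Uqcc1* was not detectable.

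Complex IV, cytochrome c oxidase, has the longest list, and many of its factors place copper and heme A in subunits that mitochondrial DNA encodes. Among the 18 tested factors, 1 was lower and 2 were higher at 11 weeks, and 3 were lower and 0 higher at 19–21 weeks. These were 5.56% and 11.1% at 11 weeks, against 7.69% and 7.23% of all tested genes. For the older mice they were 16.7% and 0%, against 4.88% and 4.24%. The median log2 fold change was -0.05 and then -0.15, with 13 and then 11 estimates below 0.

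Copper delivery includes *Cox11*, *Cox17*, *Cox19*, *Sco1*, *Sco2* and *Coa6*. *Cox11* (chr11:90638173-90644931), which brings copper to the CuB site, was lower at 19–21 weeks with 4.35, 6.94, 5.47, 4.81 and 7.82 CPM in Titan against 8.40, 10.9, 10.5, 7.91 and 11.7 CPM in control mice. The highest Titan value lay just below the lowest control value, and the log2 fold change of -0.75 (SE 0.16, adjusted p = 0.00424) was the lowest of the list at that age. Without the 5 mice it was -0.69 (adjusted p = 0.0656). With reads of both strands counted it was -0.67 (adjusted p = 0.183), and in that count reads on the 688 exon bases shared with *Tom1l1* on the opposite strand are lost. At 11 weeks the *Cox11* groups overlapped, with 6.25 to 8.83 against 7.09 to 9.33 CPM and an estimate of -0.20 (adjusted p = 0.415).

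*Cox19* (chr5:139336189-139351418), a small intermembrane-space protein that works with COX11, differed in the opposite direction. At 11 weeks the Titan mice had 36.6, 34.5, 30.8, 30.1 and 33.9 CPM and the control mice 24.9, 17.3, 32.6, 17.1 and 24.8 CPM. The control mice were spread widely and 1 of them reached the Titan range, and the log2 fold change was 0.51 (SE 0.15, adjusted p = 0.0232). At 19–21 weeks the Titan values of 31.4, 37.5, 31.7, 34.1 and 28.4 CPM lay above the control values of 27.1, 24.2, 21.0, 28.3 and 18.9 CPM. That difference, 0.45 (SE 0.15), did not pass with edgeR (adjusted p = 0.0623) and did with DESeq2. *Sco2* (chr15:89371637-89373846), a metallochaperone for the CuA site of COX2, was lower at 19–21 weeks with 15.0, 15.2, 18.1, 12.8 and 19.1 CPM against 24.01, 17.6, 26.0, 17.5 and 24.5 CPM. The groups overlapped, and the log2 fold change was -0.46 (SE 0.14, adjusted p = 0.0386). Leaving out 1 mouse ended the call in 6 of 20 fits (adjusted p up to 0.106), and 3 of 9 other settings did so too (up to 0.113). *Sco2* shares 856 exon bases with *Tymp* on the same strand, and reads there count for neither gene. Its paralog *Sco1* had estimates of -0.05 and -0.18 and *Coa6* of -0.04 and -0.17, while *Cox17* went from -0.24 to 0.11, all short of the threshold.

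Heme A is made by COX10 and COX15 and handled by SURF1. *Cox15*, the heme A synthase, was lower at 19–21 weeks with 23.6 to 31.8 CPM in Titan against 30.3 to 41.97 CPM in control mice. The groups overlapped and the log2 fold change of -0.31 (SE 0.10) passed narrowly (adjusted p = 0.0481). It was -0.22 (adjusted p = 0.136) without 1 control mouse at 41.97 CPM, and the call was lost in 14 of the 20 fits that left out 1 mouse of the series. *Cox10*, the farnesyltransferase of the step before, had 0.03 and then -0.32 (adjusted p = 0.908 and 0.0903), and *Surf1* had -0.15 and -0.13.

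Insertion and tail export of COX2 need COX18, COX20 and COX16. *Cox18* (chr5:90214724-90224001), the insertase that moves the COX2 tail across the inner membrane, was lower at 11 weeks with 9.37, 8.83, 8.17, 8.74 and 9.92 CPM in Titan against 15.5, 11.0, 15.3, 20.9 and 17.5 CPM in control mice. The Titan mice were close together below a wide control group, and the log2 fold change of -0.83 (SE 0.18, adjusted p = 0.00268) was the lowest of the list at that age. It passed in every alternative fit, with adjusted p values up to 0.0313. In older mice the ranges overlapped, 6.25 to 9.77 against 7.63 to 14.2 CPM, and the estimate was -0.41 (SE 0.18, adjusted p = 0.172). The *Cox18* mean went from 16.01 ± 3.59 to 11.2 ± 3.20 CPM between the ages in control mice and from 9.01 ± 0.663 to 8.36 ± 1.39 CPM in Titan mice (SD, n = 5). *Cox20* had estimates of -0.07 and -0.22 and *Cox16* of -0.03 and 0.11. *Cox20* was low, with a mean of 1.55 CPM, and *Cox16* shares 2130 exon bases with *Gm20498* on the same strand, so neither count is precise.

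The remaining complex IV factors include those of COX1 synthesis. *Taco1*, which activates its translation, and *Coa3* and *Cox14*, which hold the new protein, had estimates of -0.10, 0.09 and 0.08 at 11 weeks and -0.17, 0.19 and 0.04 at 19–21 weeks. *Coa5*, a twin-cysteine protein of early assembly, was higher at 11 weeks with 109 to 139 CPM in Titan against 99.2 to 113 CPM in control mice, with overlap, and a log2 fold change of 0.21 (SE 0.07, adjusted p = 0.0380). The *Coa5* call was lost in 7 of the 20 fits without 1 mouse and in 4 of 10 other settings (adjusted p up to 0.177). *Coa5* was the 1 factor of the 14 past the threshold whose estimate had the other sign at the other age, -0.08 (adjusted p = 0.535). *Coa7* and *Pet100* stayed between -0.06 and 0.04 at both ages. *Timmdc1*, *Ndufaf5*, *Cox15* and *Coa5* are described because they passed the test, beyond the limit of 4 factors per complex, and were chosen after their values were seen.

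Complex V had 0 of 2 factors past the threshold at either age with edgeR or DESeq2, and 0 had an unadjusted p under 0.05. Of all tested genes, 18.7% passed at either age with edgeR. *Atpaf2*, the chaperone of the F1 alpha subunit and the more abundant of the pair, had 20.5, 19.3, 20.9, 16.7 and 18.1 CPM in Titan and 20.2, 15.99, 16.2, 18.8 and 21.0 CPM in control mice at 11 weeks. At 19–21 weeks it had 16.9, 17.5, 19.1, 15.1 and 17.3 CPM against 18.9, 20.9, 18.9, 19.4 and 18.2 CPM. The groups overlapped at both ages, with log2 fold changes of 0.05 (SE 0.09, adjusted p = 0.774) and -0.17 (SE 0.09, adjusted p = 0.280). *Atpaf1*, the chaperone of the beta subunit, had -0.27 and -0.05. A copy, *Gm14117*, matches it in all of 840 coding bases, so its mean of 3.55 CPM covers only the reads unique to it.

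**Figure D2:**
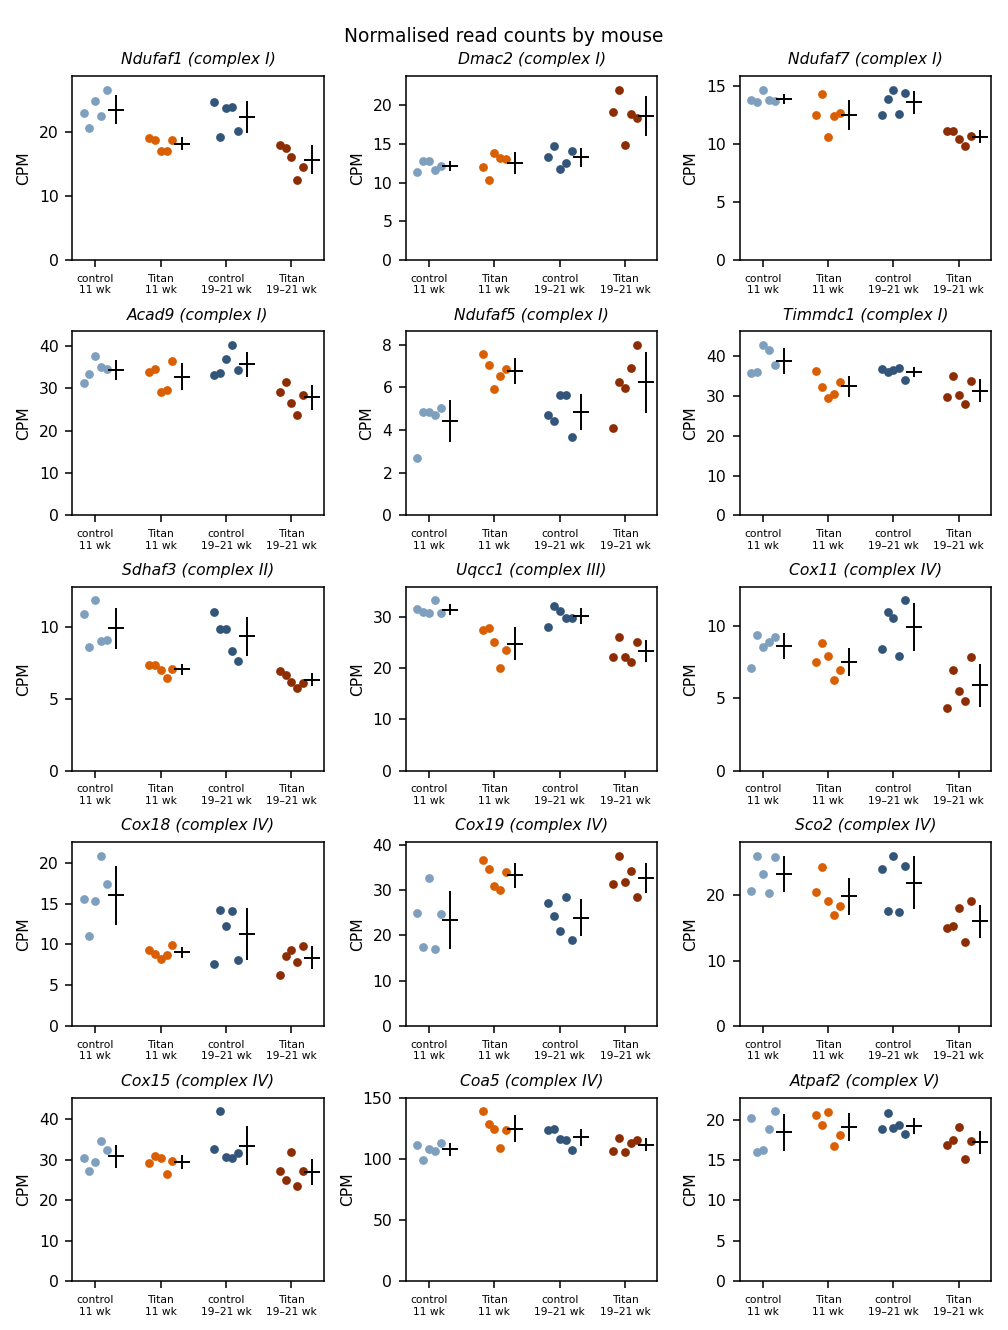
CPM (y axis, from 0) in each of the 20 mice (points, by group on the x axis) for the 14 factors past the threshold at either age and for *Atpaf2*. Black marks are the mean and SD of 5 mice. *Ndufaf1*, *Sdhaf3* and *Uqcc1* show Titan mice below control mice without overlap at both ages, and *Dmac2* shows the older Titan mice at 14.8 to 22.0 CPM above the older controls.

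Between the ages, 1 of the 45 factors changed in Titan mice and 0 changed in control mice. *Dmac2* rose in Titan from 12.1, 10.3, 13.9, 13.2 and 13.1 CPM at 11 weeks to 19.2, 22.0, 14.8, 18.8 and 18.3 CPM at 19–21 weeks, with no overlap. Its log2 fold change with age was 0.57 (SE 0.10, adjusted p = 0.00867), against background rates of 0.486% higher and 0.762% lower over all tested genes. In a fit of the Titan mice alone it was 0.57 with an adjusted p of 0.0525. In control mice *Dmac2* went from a mean of 12.1 ± 0.654 to 13.3 ± 1.20 CPM (SD, n = 5), a log2 fold change of 0.13 (SE 0.10, adjusted p = 0.934). The age effect differed between the lines by 0.45 (SE 0.14), which did not pass (adjusted p = 0.304). These contrasts share the older Titan mice with the comparison of the lines above.

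Other age estimates in Titan were mostly below 0 (36 of 45, median -0.09, against 46.05% of all tested genes and a median of 0.02). Of the 45 factors, 8 had an unadjusted p under 0.05, a share similar to the 2154 of all 13783 tested genes. *Ndufaf2*, which acts late in complex I assembly, had 5.51 to 8.05 CPM at 11 weeks and 3.88 to 5.10 CPM at 19–21 weeks in Titan, without overlap. Its change of -0.55 (SE 0.15) did not pass with edgeR (adjusted p = 0.0840) and passed with DESeq2. In control mice 28 of 45 estimates were below 0, with 0 calls by edgeR or DESeq2, against 0.0871% of all tested genes called by edgeR. An unadjusted p under 0.05 was reached there by 2 factors (*Cox18* and *Cox10*), against 848 of the 13783 tested genes. The age effect differed between the lines for 0 factors (0 by DESeq2), against 0.00726% of all tested genes. For this difference 6 factors had an unadjusted p under 0.05, against 1230 of the 13783 tested genes.

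Across the list, each mouse can be placed by the median deviation of its 45 factors from their means over the 20 mice. On a log2(CPM + 0.5) scale this median ran from 0.02 to 0.14 in the young controls, from -0.13 to 0.05 in the young Titan mice, from -0.02 to 0.16 in the older controls and from -0.28 to -0.01 in the older Titan mice. The ranges of Titan and control mice overlapped at both ages. The lowest mouse was older Titan mouse 4, which had the lowest value of its group for 26 of the 45 factors and 35.1% of its reads outside genes. Without it 6 factors were lower at 19–21 weeks, with *Sco2* at -0.38 (adjusted p = 0.106) and *Cox15* at -0.27 (adjusted p = 0.126). Mitochondrial DNA took 4.68% to 15.98% of gene reads, with medians of 6.85% and 6.63% in the Titan groups and 10.6% and 8.86% in the control groups, and its part in the differences was not tested.

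**Figure D3:**
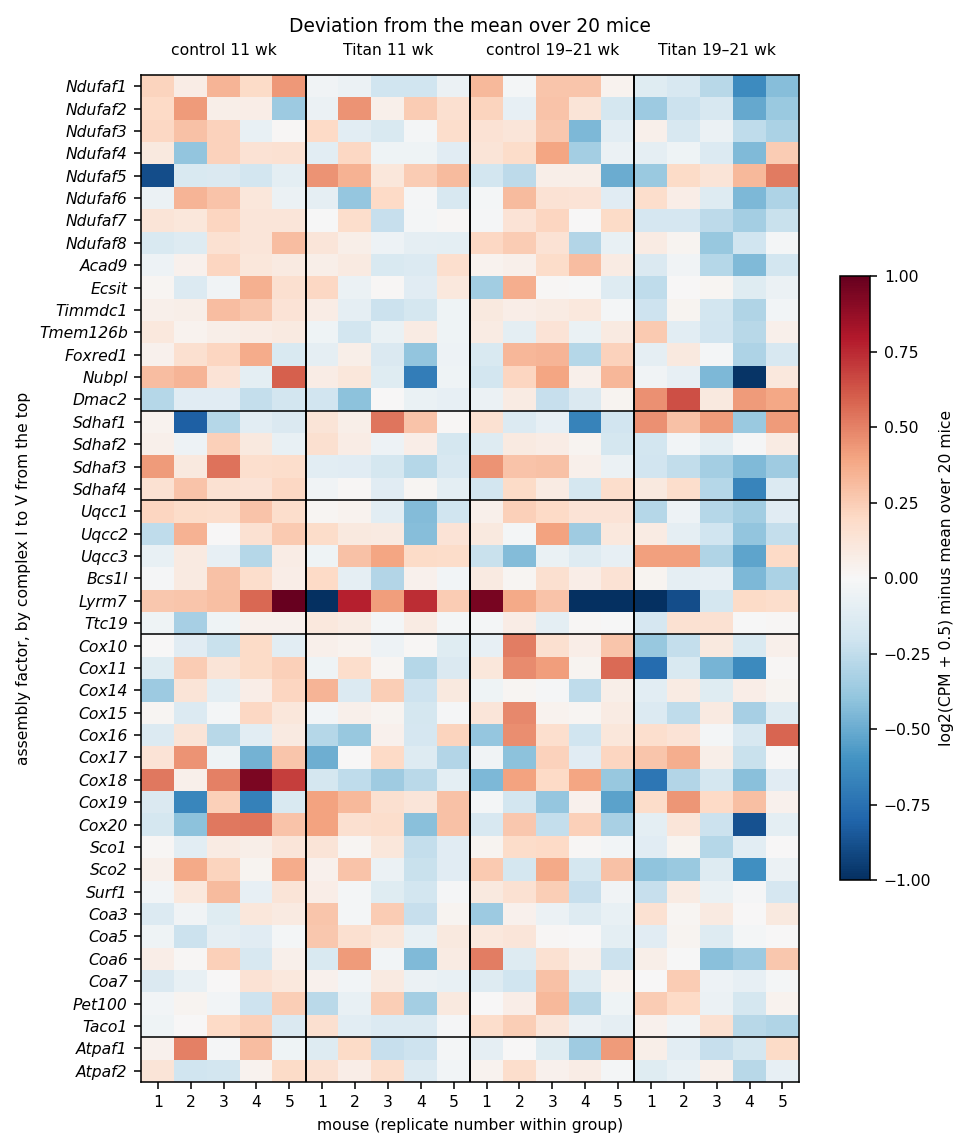
Deviation of log2(CPM + 0.5) from the mean over 20 mice (colour, red above and blue below, limits at -1 and 1) for the 45 tested factors (rows, complex I to V from the top) in each mouse (columns, by group). The older Titan group is mostly blue, most of all mouse 4, while *Dmac2* is red there and *Lyrm7* varies widely within every group.

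Per kilobase of exon (RPKM, from CPM and the union of annotated exons), the factors had a median of 5.32 over the 20 mice, against 44.9 for the 75 nuclear-encoded subunits they serve and 3.10 for all tested genes. *Cox14* and *Coa3* had the highest levels, with means of 25.1 and 24.3 RPKM and ranges over the mice of 19.1 to 31.6 and 18.7 to 29.5 RPKM. *Coa5* followed at 22.1 RPKM (19.0 to 26.7), so these first places do not differ beyond their spread. The lowest tested factors were *Lyrm7* (0.800 RPKM), *Atpaf1* (0.984 RPKM), *Cox16* (1.17 RPKM) and *Cox17* (1.21 RPKM). Reads on the bases that *Atpaf1* shares with its copy and *Cox16* with *Gm20498* are not counted, although the exon length includes these bases. The RPKM of *Atpaf1* and *Cox16* can therefore be too low. *Sdhaf3* was low at 1.60 RPKM, *Ndufaf1* was high at 13.2 RPKM and *Uqcc1* stood near the median at 4.53 RPKM, so the factors that were lower at both ages included low, middling and high levels.

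**Figure D4:**
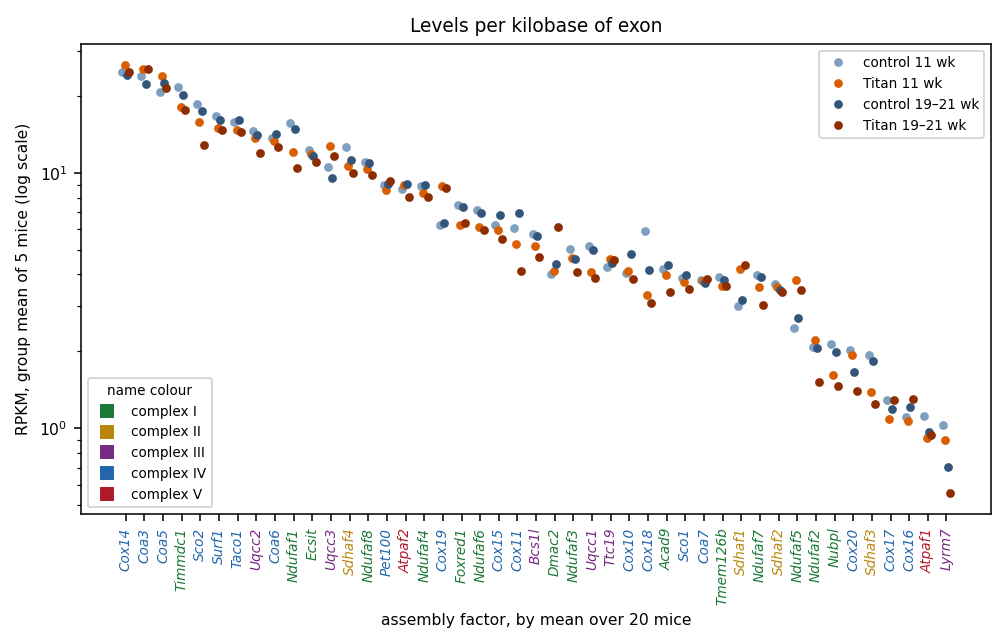
Mean RPKM of each group of 5 mice (points, log y axis) for the 45 tested factors, in order of their mean over the 20 mice (x axis, name colour gives the complex). Levels run from 25.1 RPKM for *Cox14* to 0.800 RPKM for *Lyrm7*, and the spread between the groups is small beside that range.

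The subunits of the same complexes give the other genes of the pathway. Their list was chosen with earlier results of these data known, so the direction of their counts is not independent evidence. Of the 75 nuclear-encoded subunits, 6 were lower and 1 was higher in Titan at 11 weeks, and 20 were lower and 1 was higher at 19–21 weeks. At 11 weeks the shares were 8.0% lower and 1.33% higher, against 7.69% and 7.23% of all tested genes. At 19–21 weeks they were 26.7% and 1.33%, against 4.88% and 4.24%. The median log2 fold change of the subunits was -0.10 and then -0.20, close to that of the factors, and 59 and then 68 of the 75 estimates were below 0. The subunit calls are from the fit of all 20 mice, and fits without some mice were not counted for them. By complex, the subunits lower at 19–21 weeks were 7 of 36 for complex I, 2 of 4 for complex II, 4 of 9 for complex III, 5 of 11 for complex IV and 2 of 15 for complex V.

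*Ndufa13*, a membrane-arm subunit of complex I, was lower at both ages (-0.48 ± 0.10 and -0.55 ± 0.10 SE, adjusted p = 0.00153 and 0.00108). *Sdhb*, the iron-sulfur subunit that *Sdhaf3* serves, had -0.35 ± 0.12 and -0.54 ± 0.12 (adjusted p = 0.0443 and 0.00556). *Uqcr10* of complex III had -0.31 ± 0.09 and -0.48 ± 0.09 (adjusted p = 0.0203 and 0.00162). For complex IV, *Cox5b* had -0.16 ± 0.10 and -0.73 ± 0.11 (adjusted p = 0.333 and 1.9e-04), whereas *Cox6b1* was higher at both ages (0.31 ± 0.07 and 0.22 ± 0.07, adjusted p = 0.00292 and 0.0422). For complex V, *Atp5o* had -0.27 ± 0.08 and -0.37 ± 0.09 (adjusted p = 0.0345 and 0.00853).

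**Figure D5:**
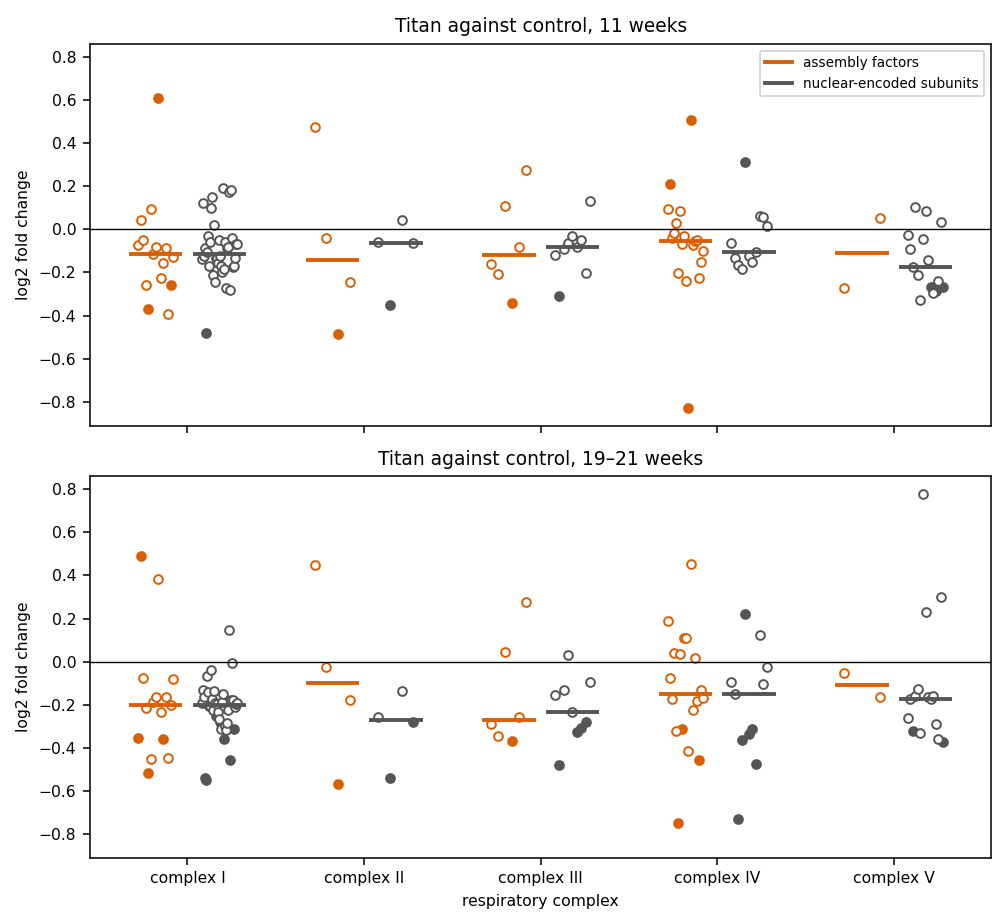
Log2 fold change of Titan over control (y axis) for assembly factors (orange) and nuclear-encoded subunits (grey) of each complex (x axis) at 11 weeks (top) and 19–21 weeks (bottom). Filled points passed the threshold and bars are medians, which lie below 0 for both kinds of gene in all 5 complexes at both ages.

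Lists of genes that act next to the factors were short, with 3 to 18 tested genes each. Over all tested genes 7.69% were lower and 7.23% higher at 11 weeks, and 4.88% and 4.24% at 19–21 weeks. An unadjusted p under 0.05 was reached by 3797 of the 13783 genes at 11 weeks and by 3321 at 19–21 weeks. Whether the counts of these lists differ from those shares was not tested. Among 18 other assembly and insertion factors 0 passed at either age (1 at an unadjusted p under 0.05 at each age, 0 by DESeq2), with medians of -0.01 and -0.10. Among 10 regulators of mitochondrial genes 0 passed (0 and 1 at an unadjusted p under 0.05, 0 by DESeq2). In iron-sulfur cluster assembly 1 of 13 genes was higher at each age, *Glrx5* at 11 weeks (0.52 ± 0.12 SE, adjusted p = 0.00380) and *Isca1* at 19–21 weeks (0.38 ± 0.11, adjusted p = 0.0367). DESeq2 also called *Bola3* at 19–21 weeks, in the lower direction (edgeR -0.32 ± 0.10, adjusted p = 0.0520). In coenzyme Q synthesis *Coq5* was higher at 11 weeks (0.38 ± 0.09, adjusted p = 0.00615) and *Coq8a* lower at 19–21 weeks (-0.55 ± 0.15, adjusted p = 0.0224), of 13 genes. In the import pathway of twin-cysteine proteins 0 of 3 genes passed (1 at an unadjusted p under 0.05 at each age, *Aifm1*, 0 by DESeq2). Of the 13 subunits that mitochondrial DNA encodes, 7 could be tested and 0 passed with edgeR. At 19–21 weeks *mt-Co1* had -0.37 ± 0.14 (adjusted p = 0.0926), and DESeq2 called it. Of the other 6, 5 were listed at 0 reads in every mouse and 1 had too few reads to be tested. Whether the factors and these lists differ from each other was not tested.

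Markers of other cell types were read beside these results. The shares over all tested genes were 7.69% lower and 7.23% higher at 11 weeks, and 4.88% and 4.24% at 19–21 weeks. Of 5 sinusoidal endothelial markers, 2 were lower in Titan at 11 weeks and 1 at 19–21 weeks. Their sum was 220 to 263 CPM in young Titan against 264 to 303 CPM in young control mice. In the older mice the sums overlapped, at 224 to 282 CPM in Titan against 261 to 285 CPM in control mice. Of 4 adipocyte markers, 2 could be tested and both were higher at 11 weeks, with *Cidec* at 8.94 to 70.5 CPM in Titan against 0.422 to 2.42 CPM in control mice, and *Cidec* was higher at 19–21 weeks as well (3.71 ± 0.76, adjusted p = 0.00388), while *Adipoq* and *Plin1* stayed at or below 0.199 CPM in every mouse. The summed adipocyte list was 17.1 to 76.4 against 5.73 to 7.83 CPM at 11 weeks and 7.48 to 64.4 against 4.42 to 8.66 CPM at 19–21 weeks. Of 6 stellate markers, 1 was higher at 11 weeks (*Des*) and 0 passed at 19–21 weeks. Of 6 lymphocyte and neutrophil markers, 2 could be tested, and *Cd3e* was higher at both ages. The other, *Ptprc*, had estimates of 0.06 and 0.24 (adjusted p = 0.907 and 0.541 by edgeR). The summed levels of the stellate list and of the lymphocyte and neutrophil list overlapped between the lines at both ages. Of 5 hepatocyte markers, *Apoa1* and *Cps1* were lower at 11 weeks (-0.54 and -0.72). Kupffer, cholangiocyte and erythroid markers had 0 genes past the threshold at either age with edgeR and with DESeq2 (1 at an unadjusted p under 0.05, *Slc4a1* at 19–21 weeks). The part of these markers in the differences of the assembly factors was not tested.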

How the data were processed

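Liver RNA of 20 male mice (4 groups of 5, from the labels) was sequenced after ribosomal RNA depletion with a directional kit. The deposited counts are, per the file headers and the labels, reads per gene counted by the authors with STAR 2.5.3a on GRCm38. Column 4, the strand with 96.83% to 97.55% of stranded reads, was used as deposited. Symbols and positions came from GENCODE M21 on GRCm38. Of the 55573 gene IDs, 92 histone and 1562 Y genes were left out, and 13783 passed edgeR's filterByExpr. edgeR 4.0.16 (R 4.3.3) with TMM and the quasi-likelihood test fitted all 4 groups together, and p was adjusted by Benjamini-Hochberg over all tested genes, with a threshold of 0.05. Lists were described by counts and medians. DESeq2 1.42.0, other filters, scalings and subsets of mice were alternatives. The fit was tested on simulated counts. Copies were searched in coding sequence with BLAST 2.17.0 (identity of at least 90% over 100 bases). Members and lists were chosen with earlier results of these data known. Up to 4 factors per complex were described in full, those past the threshold with the smallest p, or the most abundant where none passed. Replicates are separate mice. Reads on genes numbered 6794935 to 23295028 per mouse, which limits the precision of low genes.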

Additional observations from a re-analysis of the deposited data

Results flagged for a closer look

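In 3 of the 60 groups of 5 mice examined, for the 15 factors described one by one, 1 mouse stood apart from the other 4 by Dixon's test (critical value 0.71), and chance alone flags about 1 group in 20. *Ndufaf7* was 14.71 CPM in control mouse 3 at 11 weeks, against 13.66 to 13.84 CPM in the other 4. *Ndufaf5* was 2.699 CPM in control mouse 1 at 11 weeks, against 4.695 to 5.035 CPM in the other 4, and the difference between the lines without that mouse was 0.48 on the log2 scale and still passed the threshold. *Cox15* was 41.97 CPM in control mouse 2 at 19–21 weeks, against 30.31 to 32.59 CPM in the other 4, and without that mouse the log2 fold change was -0.22 (adjusted p = 0.136, edgeR).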

How the results depend on the processing

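All counts below are of the 45 tested assembly factors, with edgeR unless another tool is named. Lower in Titan at 11 weeks were 5, with 4 to 5 when 1 mouse was left out and 1 with a further limit of 0.5 on the size of the log2 fold change. Higher at 11 weeks were 3, with 0 to 4 when 1 mouse was left out (0 without Titan mouse 1 and 1 without Titan mouse 2, control mouse 2 or control mouse 4) and 0 without the 5 mice above 33% of reads outside genes, a setting chosen after seeing the data. Lower at 19–21 weeks were 8, with 6 to 8 when 1 mouse was left out, 5 with both strands counted, 3 with the log2 limit and 0 without the 5 mice. Higher at 19–21 weeks was 1, with 1 to 2 when 1 mouse was left out (2 without control mice 2, 3 or 4 at 11 weeks, control mouse 4 or Titan mouse 4 at 19–21 weeks), 2 with DESeq2, with only the groups compared and without the 5 mice, and 0 with the log2 limit. Changed with age in Titan was 1, with 2 for DESeq2 and 0 when only the Titan mice were fitted. The remaining settings stayed within 1.5 times these counts. For the 18 single fold changes past the threshold, 151 of 179 values in other settings and 324 of 360 with 1 mouse left out also passed, and 0 reversed. Calls lost with 1 mouse left out were *Ndufaf5* (Titan mouse 1, 0.57, adjusted p = 0.0509), *Cox19* (control mice 2 and 4, Titan mice 1 and 2, 0.41 to 0.49), *Timmdc1* (control mice 3 and 4, Titan mice 3 and 4, -0.24 to -0.21) and *Coa5* (control mice 2, 3 and 4, Titan mice 1, 2, 3 and 5, 0.17 to 0.23) at 11 weeks, and *Sco2* (control mice 1, 3 and 5, Titan mice 1, 2 and 4, -0.44 to -0.38) and *Cox15* (14 mice, -0.33 to -0.22) at 19–21 weeks. *Sco2* did not pass the filter on low counts with both strands counted. Replicate numbers did not pair the mice (4 of 30 same-numbered pairs correlated over 0.1, median r -0.001 against 0.009 for other numbers, and 4 of 20 mice correlated best with a mouse of their own number), and with the number as a replicate block 4 factors were lower and 2 higher at 11 weeks, 7 and 1 at 19–21 weeks, 1 changed with age in Titan, 0 in control and 0 differently between the lines. The median log2 fold changes of the complexes were above 0 in 0 of 300 values from other settings, but some came near 0. At 19–21 weeks complex IV went from -0.15 to as high as -0.03, complex II from -0.10 to -0.01 and complex I from -0.20 to -0.12. At 11 weeks complex IV went from -0.05 to as high as -0.002. The causes of these changes were not tested. *Lyrm7*, *Cox20*, *Atpaf1* and *Cox16* averaged under 5 CPM.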
